A study of Homo sapiens with 5 samples.

Results

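TFF3-high and TFF3-zero cells are 2 groups of single SW480 cells recovered from zebrafish xenografts 1 day after injection (1 dpi), chosen by their own content of TFF3 transcripts. A well counted as a cell when it held more than 2000 genes and less than 25% of its UMIs (unique molecular identifiers, each standing for 1 captured transcript) on mitochondrially encoded genes, which 531 wells did at 1 dpi. Within each plate the 15% of cells with the most TFF3 UMIs per 10000 formed the TFF3-high group, 79 cells in all, and the cells with 0 TFF3 UMIs formed the TFF3-zero group, 171 cells. The other 281 cells lay between them, and the 250 chosen cells are part of 822 cells that passed in the whole series.

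The study injected SW480, an established human colorectal cancer line that carried GFP from a lentiviral vector, into zebrafish. Tumors were taken apart at 1 dpi and at 4 dpi, and sorted cells were sequenced by SORT-seq, with 3 plates (libraries 6, 7 and 8) at 1 dpi and 2 plates (libraries 10 and 11) at 4 dpi. The series describes a mixture of many tumors per collection, so the plates of a time point may come from the same pool, and the spread between them may then be technical only. Both groups share the line, the vector, the host and the day, and differ in TFF3 alone by the way they were chosen.

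Trefoil factors are small secreted proteins, held in shape by disulfide bonds, that mucus-producing cells release onto the surface of the gut, where they thicken mucus and help epithelial cells to migrate over a wound. TFF3 is the trefoil factor of intestinal goblet cells, while TFF1 and TFF2 belong mainly to the stomach, and the genes of all 3 lie side by side on chromosome 21. In SORT-seq each cell is sorted into its own well, and the UMIs counted there come from the polyadenylated transcripts of that well.

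In libraries 6, 7 and 8 the TFF3-high groups held 34, 21 and 24 cells with 300, 186 and 237 TFF3 UMIs, and the TFF3-zero groups held 87, 36 and 48 cells. These TFF3 values made the groups and are a description only. The median TFF3-high cell had 1.75, 2.82 and 3.26 TFF3 UMIs per 10000. At the threshold the lowest cell inside and the highest cell outside had 1.40 and 1.40 UMIs per 10000 in library 6, 1.78 and 1.62 in library 7, and 2.37 and 2.35 in library 8, so the upper group is the end of a continuous range. A single cell of library 6 with 88 TFF3 UMIs (17.8 per 10000) and a single cell of library 8 with 49 (28.9 per 10000) stood far above the rest, where the next cells reached 4.83 and 6.19.

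**Figure D1:**
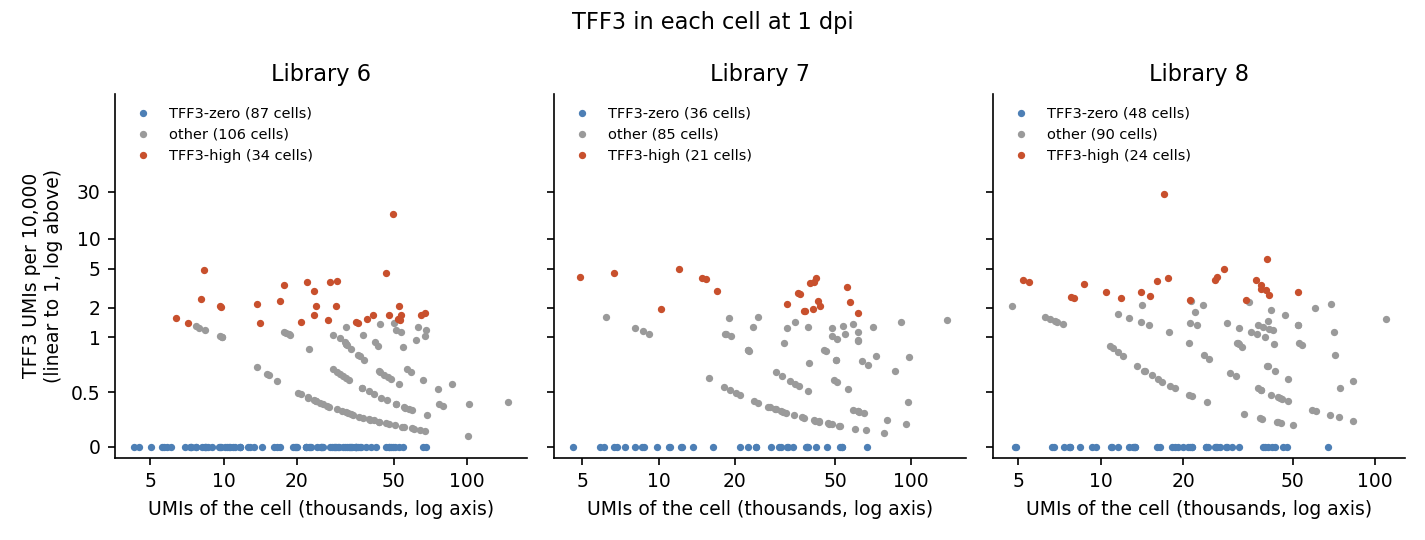
TFF3 UMIs per 10000 (vertical axis, linear to 1 and logarithmic above) against the total UMIs of each of the 531 cells at 1 dpi (logarithmic axis), by library and group. The TFF3-high cells start at 1.40, 1.78 and 2.37 in libraries 6, 7 and 8, and 2 cells reach 17.8 and 28.9.

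Depth differed between the groups. The summed UMIs were 1078990, 684990 and 559286 in the TFF3-high groups and 2027520, 898106 and 1036940 in the TFF3-zero groups of libraries 6, 7 and 8. The median TFF3-high cell held 28097.5, 37480 and 19328.5 UMIs and the median TFF3-zero cell 21785, 23371 and 19471.5, so the high cells were deeper in libraries 6 and 7 and about level in library 8. A cell with few UMIs can also have 0 TFF3 UMIs by sampling alone. The cells between the groups were the deepest, with medians of 37679.5, 41585 and 34958.5 UMIs. Mitochondrial shares were alike, with medians of 12.4%, 11.1% and 10.9% in the TFF3-high cells and 13.3%, 11.5% and 10.9% in the TFF3-zero cells.

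Markers placed both groups as colorectal cancer cells, and several goblet genes were absent from both. KRT8, KRT18 and EPCAM, an epithelial keratin pair and an epithelial adhesion protein, had 5796, 2913 and 2850 UMIs in the TFF3-high cells and 7702, 3619 and 4703 in the TFF3-zero cells. CDX2, an intestinal transcription factor, had 57 and 96. These counts are out of 2323266 UMIs in the TFF3-high cells and 3962564 in the TFF3-zero cells, so they show presence and not relative level. Of the goblet and secretory lineage genes listed in the files (31 besides TFF3), SPDEF, the master regulator of goblet cells, AGR2, REG4 and CAPN9 had 0 UMIs in all 531 cells. In CPM (UMIs of the gene or list per 1000000 UMIs of the summed cells) MUC2, the main gel-forming mucin of the colon, was at 8.61 and 4.04 in the TFF3-high and TFF3-zero cells (20 and 16 UMIs), MUC5AC at 6.03 and 3.79 (14 and 15), KLK1 at 15.9 and 6.06 (37 and 24) and FCGBP at 0.4304 and 1.01 (1 and 4). Other members went the opposite way to MUC2, such as FOXA1 at 6.46 and 9.84 and GFI1 at 4.304 and 6.06, and none of these 6 had enough UMIs to be tested. The summed level of the list was 284.5, 378.1 and 330.8 in the TFF3-high groups and 306.8, 257.2 and 295.1 in the TFF3-zero groups, which overlap, and XBP1 was its most abundant gene. With SPDEF, AGR2 and REG4 absent, the TFF3-high cells are called by their rule and not goblet-like. Markers of blood, endothelial, stromal and liver cells summed to 70.4, 61.3 and 64.4 CPM in the TFF3-high cells and 37.0, 50.1 and 61.7 in the TFF3-zero cells, led by LUM with 71 and 67 UMIs, and COL1A2 and MS4A1 had 0 UMIs in all 531 cells.

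Beside TFF3 itself, the genes higher in the TFF3-high cells included TFF2, TFF1, KLK10, PLAUR, PTGDS, FXYD3, KRT19, GAPDH and RPS15. Those lower included TRIB3, SLC3A2, TXNIP, ARRDC4, MT1E and AKAP12. UMIs were summed per plate and group, TFF3 was left out, and the groups were compared within plates with the edgeR quasi-likelihood test and Benjamini-Hochberg adjustment. Of 8958 genes tested, 140 were higher in the TFF3-high cells (1.56% of the genes tested) and 40 lower (0.447%), and all 180 differed in the same direction in 3 of 3 plates, as 3759 of the 8958 genes did. Direction in a plate was read from log2 differences computed with a prior count of 2, which put PROX1 at 0.08 in library 7. The 140 genes had a median log2 difference of 0.95 and the 40 genes one of -1.05, beside -0.01 over all genes tested.

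The counts move with the plates and with the choice of cells. Without library 6 they were 175 and 77, without library 7 they were 292 and 171, and without library 8 they were 80 and 15. With each TFF3-high cell set against the TFF3-zero cell of its plate nearest in total UMIs, 23 genes were higher and 1 lower. This matching also cut the TFF3-zero cells of libraries 6, 7 and 8 to 34, 21 and 24. Under it, 137 of the 137 higher genes tested and 38 of the 38 lower genes tested kept their direction. This comparison reuses the TFF3-high cells and a part of the TFF3-zero cells, so a kept direction is no independent support. The median UMIs of the TFF3-high and matched TFF3-zero cells were 28097.5 and 28336 in library 6. In library 7 they were 37480 and 32257, and in library 8 19328.5 and 19662.5. Thinning cells to 5000 UMIs with the groups kept gave 107 higher and 48 lower genes. Of these, 68 and 14 are among the 140 and the 40. With cells thinned and groups chosen again, 70 genes were higher and 18 lower, of which 26 and 5 are shared. The TFF3-zero cells then numbered 174, 97 and 105 in libraries 6, 7 and 8. Of the 140 and the 40, 114 and 37 were tested there, and 112 and 36 of those kept their direction. The cells come from the same plates, so this is no independent support either. The 2 cells with the most TFF3 were left out in a comparison chosen after seeing the data, which called 103 genes higher and 25 lower, all of them among the 140 and the 40.

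TFF2 had the largest difference, and TFF1 was higher too. TFF2 had 9.37, 8.91 and 9.64 CPM in the TFF3-zero cells of libraries 6, 7 and 8 and 60.2, 75.9 and 110.9 in the TFF3-high cells, with 15.2, 18.4 and 26.8 in the cells between. No plate overlaps, and the difference was 3.14 ± 0.27 (log2 ± SE, n = 3 plates, adjusted p = 0.000225 with edgeR), the largest of the 180 called. A TFF2 UMI was found in 68.4% of the TFF3-high cells and 15.2% of the TFF3-zero cells, and in 41.03% and 4.82% after every cell was thinned to 5000 UMIs, which left out 1 TFF3-high cell and 5 TFF3-zero cells. TFF1 was scarcer, at 3.45, 4.45 and 3.86 CPM in the TFF3-zero cells and 11.1, 21.9 and 26.8 in the TFF3-high cells, a log2 difference of 2.29 ± 0.45 (adjusted p = 0.0249, edgeR, 3 of 3 plates). Its call was lost without library 8, at 2.02, and TFF2 kept its call without each library, at 2.91 to 3.43.

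The 3 trefoil genes lie in 1 cluster on the minus strand of chromosome 21, at chr21:42311667-42315409 (TFF3), chr21:42346357-42350997 (TFF2) and chr21:42362282-42366535 (TFF1) in GRCh38. The start of TFF2 is 35.6 kb and that of TFF1 51.1 kb from the start of TFF3. TMPRSS3, a membrane serine protease whose gene starts 80.7 kb away, had 63.6, 70.1 and 66.5 CPM in the TFF3-zero cells and 105.7, 129.9 and 130.5 in the TFF3-high cells, a log2 difference of 0.95 ± 0.18 (adjusted p = 0.0224, edgeR, 3 of 3 plates). BACE2, an aspartyl protease with its start 1148 kb away, rose by 0.80 ± 0.19 in 3 of 3 plates (adjusted p = 0.0474, edgeR). Among 14 tested neighbours of the cluster these 4 were higher and 0 lower, with a median of 0.32. Between BACE2 and TFF3, MX2 was at 0.80, TMPRSS2 at 0.39, RIPK4 at -0.39 and ZBTB21 at -0.60, none of them called. Of the 92 tested genes of chromosome 21, 82 have a position. Among these the 3 nearest to TFF3, namely TFF2, TFF1 and TMPRSS3, were all higher, and the next, ZBTB21, lies 305 kb away. Whether this has a regional cause was not tested. Over chromosome 21 as a whole, 5 of 92 tested genes were higher, the fifth being PCP4, and 0 lower. TMPRSS3 lost its call without library 8 (0.89) and turned to -0.0705 when cells were thinned and the groups chosen again, and BACE2 lost its call without library 6, 7 or 8 (0.84, 0.72 and 0.84). Both were singled out after their values were seen.

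**Figure D2:**
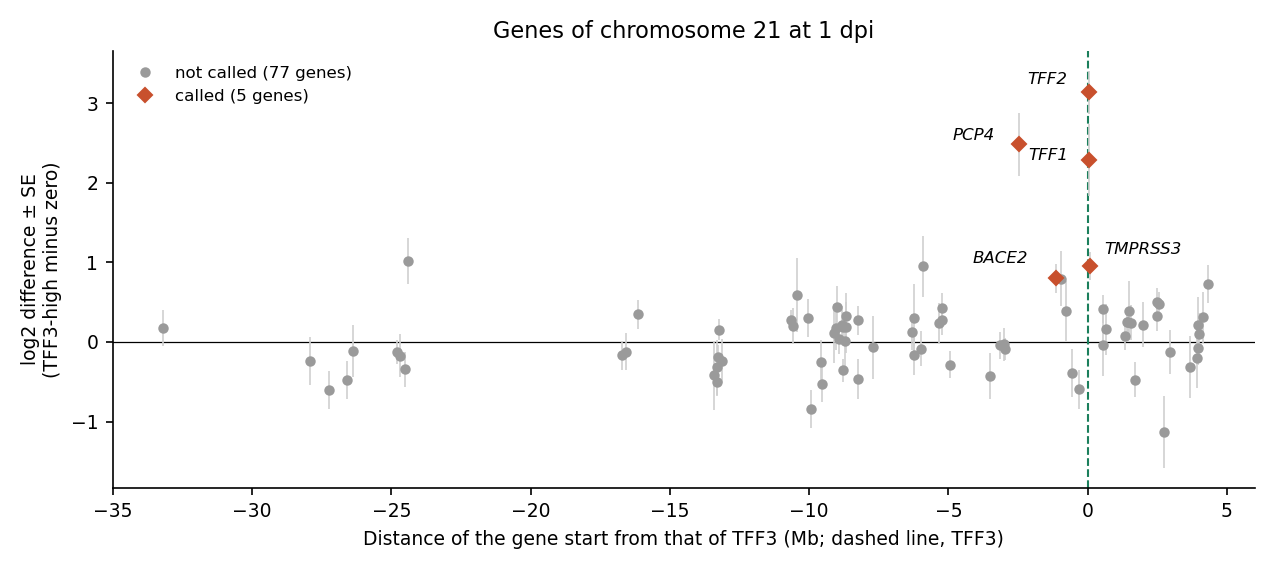
Log2 difference between TFF3-high and TFF3-zero cells at 1 dpi, with its SE from the fit over 3 plates, against the distance of each gene's start from that of TFF3 in Mb, for the 82 tested genes of chromosome 21 that have a position. The 5 called genes are TFF2, TFF1, TMPRSS3, BACE2 and PCP4, 3 of which are the nearest to TFF3 among these 82.

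KLK10, a secreted kallikrein-related protease, had 23.2, 34.5 and 14.5 CPM in the TFF3-zero cells and 88.05, 224.8 and 82.2 in the TFF3-high cells of libraries 6, 7 and 8. Every high value exceeds every zero value, and the log2 difference was 2.44 ± 0.23 (adjusted p = 0.000255, edgeR, 3 of 3 plates). PLAUR, the urokinase receptor, chosen after its values were seen, had 80.4, 188.2 and 87.8 CPM in the TFF3-zero cells and 140.9, 892.0 and 368.3 in the TFF3-high cells, where library 7 stands out and 1 cell gave 21.6% of the UMIs. Its log2 difference was 1.82 ± 0.24 (adjusted p = 0.00327, edgeR, 3 of 3 plates), and the call was kept without each library. PLAU, the urokinase that PLAUR binds, had 4.44, 10.02 and 0 CPM in the TFF3-zero cells and 19.5, 39.4 and 60.8 in the TFF3-high cells. Its UMIs came from 12 of the 79 TFF3-high cells, 1 of which gave 24.4%, and the log2 difference was 2.99 ± 0.56 (adjusted p = 0.0224, edgeR, 3 of 3 plates), with 2.12 without library 8. In a list of plasminogen activators, proteases and their inhibitors, written after values were seen, 6 of 16 tested genes were higher and 0 lower, with a median of 0.56. The others were SERPINF1 (1.15) and SLPI (0.89), a serpin and a secreted protease inhibitor, besides TMPRSS3.

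FXYD3, a small regulator of the sodium pump, had 24.2, 24.5 and 22.2 CPM in the TFF3-zero cells and 82.5, 129.9 and 98.3 in the TFF3-high cells. The zero values are nearly level across plates and lie well below every high value, for a log2 difference of 2.17 ± 0.23 (adjusted p = 0.000708, edgeR, 3 of 3 plates). Over 19 alternatives FXYD3 ranged from 0.64 to 2.40 on the log2 scale, and its call was lost in 1. Its relative FXYD5, chosen after its values were seen, rose by 1.66 ± 0.27 and TSPAN1, a tetraspanin of epithelial membranes, by 1.77 ± 0.35. KRT19, a simple epithelial keratin, had 591.9, 615.7 and 637.5 CPM in the TFF3-zero cells and 873.0, 1087.6 and 979.8 in the TFF3-high cells, a log2 difference of 0.76 ± 0.12 (adjusted p = 0.0108, edgeR, 3 of 3 plates). KRT18 rose by 0.55 ± 0.12, KRT8 by 0.47 and KRT7 by 1.52 ± 0.32 on the log2 scale. Of the absorptive colonocyte list, 4 of 9 tested genes were higher and 0 lower, with a median of 0.76. Of the epithelial junction and keratin list, 4 of 26 tested genes were higher and 0 lower, with a median of 0.23. The median over all genes was -0.01. The colonocyte list held 32 genes in the files, and only these 9 had enough UMIs to be tested. Of the others, CA1, CA4 and GUCA2B had 0 UMIs in all 531 cells. FABP1, KRT20 and SLC26A3 had 0 UMIs in the TFF3-high cells and 4, 1 and 1 in the TFF3-zero cells, while CEACAM1 had 23 and 15. KRT8, KRT18 and KRT19 are in both lists, joined by TSPAN1 in the first and KRT7 in the second, so the counts overlap. Their classical brush border member VIL1, villin, was at -0.0423 and not called, EPCAM was at 0.13 and not called, and the call of KRT18 was lost without library 7 (0.43) and that of KRT7 without library 8 (1.41).

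PTGDS, which makes prostaglandin D2, was chosen after its values were seen because it was among the steadiest genes. It had 59.2, 76.8 and 73.3 CPM in the TFF3-zero cells, 112.1, 120.6 and 122.1 in the cells between and 206.7, 232.1 and 209.2 in the TFF3-high cells. The 3 sets of values do not overlap, and the log2 difference was 1.74 ± 0.16 (adjusted p = 0.000225, edgeR, 3 of 3 plates). S100A4, a calcium-binding protein linked to cell motility, had 317.6, 442.0 and 440.7 and 565.3, 808.8 and 1010.2 CPM in the TFF3-zero and TFF3-high cells, a log2 difference of 1.06 ± 0.13 (adjusted p = 0.00295, edgeR, 3 of 3 plates). Its lowest high value exceeds its highest zero value. TRIM29 (1.31 ± 0.20), LEMD1 (1.89 ± 0.26), STMN1 (1.21 ± 0.17), which binds tubulin, and MSLN (1.78 ± 0.32), the cell-surface protein mesothelin, were also picked after their values were seen, and each was higher in 3 of 3 plates.

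**Figure D3:**
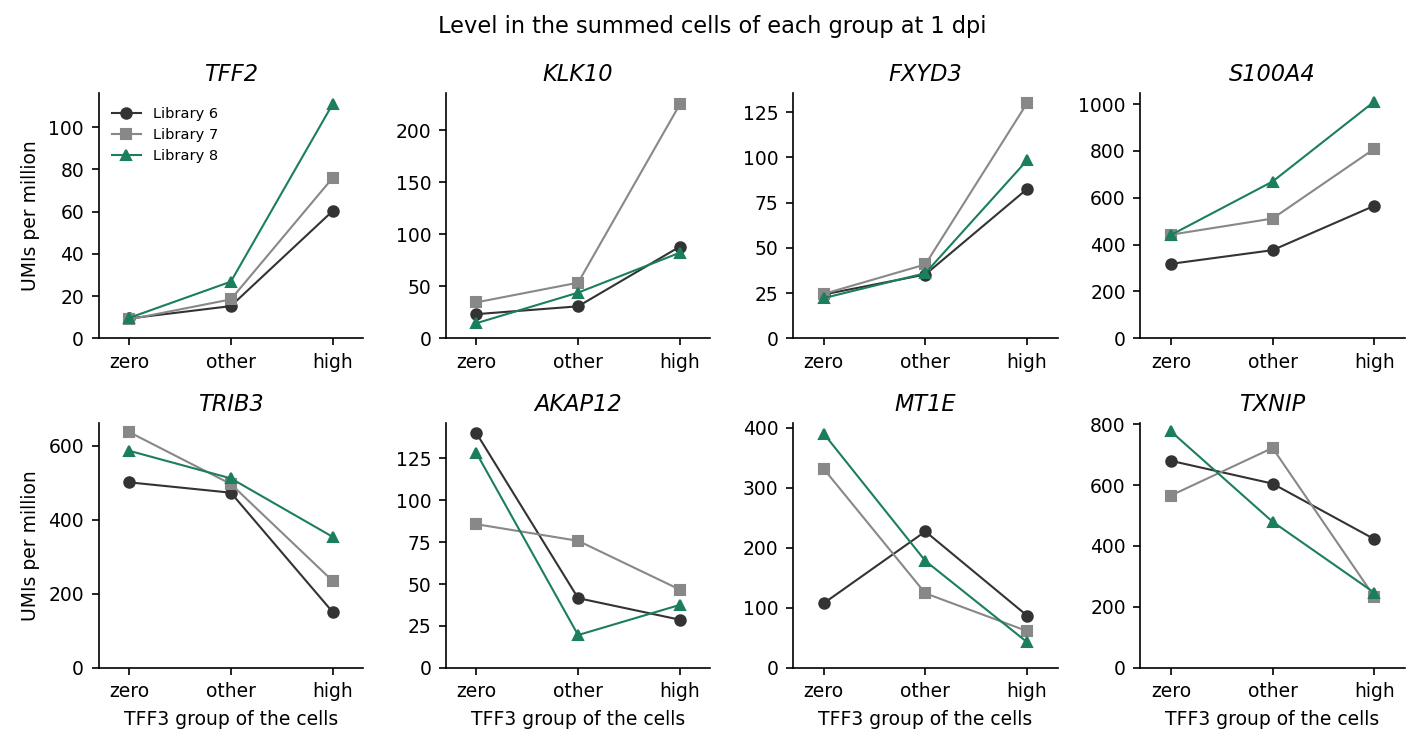
CPM in the summed TFF3-zero cells, the other cells and the TFF3-high cells of libraries 6, 7 and 8 (symbols) for 8 genes. The 4 genes of the upper row climb from zero to high in every plate, TFF2 from 9.37 to 60.2 in library 6, and the 4 of the lower row end lowest in the high cells except AKAP12 in library 8.

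Several genes among the 12 largest rises rest on few UMIs. HRASLS2, a phospholipase-like enzyme, had 4.44, 0 and 2.89 CPM in the TFF3-zero cells and 23.2, 16.1 and 14.3 in the TFF3-high cells. CRIP1, a small zinc-binding protein, had 1.97, 2.23 and 8.68 and 16.7, 24.8 and 17.9, and UPK3B, a uroplakin, had 5.92, 2.23 and 3.86 and 17.6, 17.5 and 26.8. PCP4, a modulator of calmodulin, had 11.8, 5.57 and 7.72 and 30.6, 36.5 and 92.98, with the highest value in library 8. All 4 were higher in 3 of 3 plates, with log2 differences of 2.78 ± 0.54 for HRASLS2, 2.40 ± 0.51 for CRIP1, 2.27 ± 0.45 for UPK3B and 2.49 ± 0.40 for PCP4. Without library 6 the call of CRIP1 was lost (2.08), without library 8 that of UPK3B (2.03), and PCP4 kept its call at 1.90 without library 8 and 3.35 without library 6. TGM2, a transglutaminase, CHI3L1, a secreted chitinase-like protein, and MYH7B, a myosin heavy chain, differed by 2.01 ± 0.41, 1.98 ± 0.40 and 1.95 ± 0.35, but each rested on library 6. MYH7B showed this most, with 25.6, 15.6 and 32.8 CPM in the TFF3-zero cells against 193.7, 27.7 and 64.4 in the TFF3-high cells and 28.8% of the latter's UMIs from 1 cell. For TGM2, 1 cell gave 31.8% of the UMIs of the TFF3-high cells. Without library 6 none of these 3 was called, at 1.36, 1.46 and 1.04.

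A few genes of glycolysis were higher by smaller amounts. GAPDH and LDHA were chosen after their values were seen. GAPDH had 5218.7, 5539.4 and 4942.4 CPM in the TFF3-zero cells and 6614.5, 6973.8 and 6935.6 in the TFF3-high cells, a log2 difference of 0.49 ± 0.0829 (adjusted p = 0.0145, edgeR, 3 of 3 plates). LDHA, which turns pyruvate into lactate, had 744.3, 783.9 and 546.8 and 1062.1, 1001.5 and 1001.3, a log2 difference of 0.67 ± 0.13. Both genes were higher in the TFF3-high cells than in any TFF3-zero group. With GPI (0.72 ± 0.15), ALDOA (0.69 ± 0.14) and TPI1 (0.62), 5 of 27 tested genes of the hypoxia and glycolysis list were higher and 0 lower, and the list's median was 0.43. The 5 are all enzymes of glycolysis or of the step after it, and the hypoxia-inducible VEGFA (-0.33) and SLC2A1 (-0.0829) were not called. Without library 8 the calls of LDHA (0.52), GPI (0.53) and ALDOA (0.73) were lost.

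Some ribosomal protein genes were higher. RPS15, of the small subunit, had 598.8, 793.9 and 768.6 CPM in the TFF3-zero cells and 949.0, 1386.9 and 1530.5 in the TFF3-high cells, and RPS28 had 1051.5, 1163.6 and 1263.3 and 1434.7, 1769.4 and 1940.0. Every high value exceeded every zero value, with log2 differences of 0.92 ± 0.12 (adjusted p = 0.00327, edgeR, 3 of 3 plates) and 0.65 ± 0.11 (adjusted p = 0.01105, edgeR, 3 of 3 plates). Of 81 cytosolic ribosomal protein genes tested, 13 were higher and 1 lower, with a median of 0.30. Of the 81, 79 had a positive value and 68 were positive in 3 of 3 plates. Over all 8958 genes tested these counts were 4433 and 1599. Together the ribosomal protein genes took 129154, 145645 and 138941 CPM in the TFF3-zero cells, 129076, 129429 and 134800 in the cells between and 142932, 160560 and 174834 in the TFF3-high cells. The cells between were below the TFF3-zero cells in 3 of 3 plates, so the summed level did not climb with TFF3. The gene that fell was RPL22L1, a paralog of RPL22, at 145.0, 161.5 and 168.8 and 91.8, 97.8 and 62.6 CPM and -0.80 ± 0.18. Its call was lost without library 8 (-0.61), and its sign turned to 0.22 when cells were thinned and the groups chosen again.

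TRIB3, a pseudokinase induced by the transcription factor ATF4, had 501.1, 636.9 and 586.3 CPM in the TFF3-zero cells and 151.1, 235.0 and 354.0 in the TFF3-high cells. The groups do not overlap, although the TFF3-high cells ranged from 151.1 to 354.0 CPM between plates, and the log2 difference was -1.20 ± 0.18 (adjusted p = 0.00941, edgeR, 3 of 3 plates). SLC3A2, the shared heavy chain of several amino acid transporters and, like XPOT, chosen after its values were seen, had 1010.6, 837.3 and 1043.5 and 483.8, 543.1 and 561.4 CPM, a log2 difference of -0.77 ± 0.13 (adjusted p = 0.0145, edgeR, 3 of 3 plates). SLC7A11, the cystine transporter that pairs with SLC3A2, had 240.2, 167.0 and 192.9 and 116.8, 112.4 and 100.1, and XPOT, which exports tRNA from the nucleus, had 111.0, 161.5 and 179.4 and 63.9, 103.7 and 75.1. These differed by -0.77 ± 0.17 and -0.78 ± 0.18, and both calls were lost without library 6 or 8 (-0.63 and -0.74 for SLC7A11, -0.80 and -0.63 for XPOT). INHBE, an inhibin subunit, had 64 UMIs in the TFF3-zero cells and 6 in the TFF3-high cells, with a log2 difference of -2.55 ± 0.59 that was not called without library 8 (-2.05).

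A list of 37 tested ATF4 amino acid response genes was written after values were seen. It held these 5 as lower and 0 as higher, and 33 of the 37 had a negative value. Over all 8958 genes tested, 4433 had a positive value. The median of the ATF4 list was -0.40, with plate medians of -0.80, 0.0118 and -0.61 in libraries 6, 7 and 8, so library 7 did not show it. Without library 6 the median was -0.21 and without library 7 it was -0.68. With cells thinned and groups chosen again it was -0.0934, so most of it was gone. ATF4 itself was at -0.28, ASNS, the asparagine synthetase that ATF4 induces, at -0.0384 and CHAC1 at -1.18, none of them called. The list of chaperones and unfolded protein response genes of the endoplasmic reticulum held 1 of 37 tested genes as lower, which was TRIB3, with 0 higher and a median of -0.0329.

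TXNIP and ARRDC4 are a pair of arrestin-domain genes that restrain glucose uptake and are induced by glucose through the factors MondoA and ChREBP. TXNIP had 679.6, 565.6 and 776.3 CPM in the TFF3-zero cells and 422.6, 233.6 and 246.7 in the TFF3-high cells, with no overlap, a log2 difference of -1.09 ± 0.16 (adjusted p = 0.00941, edgeR, 3 of 3 plates). ARRDC4 had 393.6, 308.4 and 460.0 and 204.8, 219.0 and 87.6, a log2 difference of -1.10 ± 0.25 (adjusted p = 0.0437, edgeR, 3 of 3 plates) that was lost without library 8 (-0.64). Both were singled out after their values were seen, and 1 cell gave 25.7% of the ARRDC4 UMIs of the TFF3-high cells.

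Because these 2 genes moved together, their promoters are shown, from the table of RefSeq promoters on GRCh38.p14 (250 bases before to 50 after the start). Of 74 genes looked up, 46 are in that table, and TFF1, TFF2 and TFF3 are missing from it. Capitals mark CACGNG on either strand, the shared part of the carbohydrate response element, which 30.5% of the 35116 promoters hold. The TXNIP window is chr1:145996530-145996829 on the minus strand and the ARRDC4 window chr15:97960453-97960752 on the plus strand.
TXNIP: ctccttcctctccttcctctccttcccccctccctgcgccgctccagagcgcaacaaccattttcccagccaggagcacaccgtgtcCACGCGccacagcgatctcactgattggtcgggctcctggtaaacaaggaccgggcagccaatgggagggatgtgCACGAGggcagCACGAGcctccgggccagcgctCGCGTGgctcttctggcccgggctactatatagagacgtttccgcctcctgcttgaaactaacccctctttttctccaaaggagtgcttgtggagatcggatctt
ARRDC4: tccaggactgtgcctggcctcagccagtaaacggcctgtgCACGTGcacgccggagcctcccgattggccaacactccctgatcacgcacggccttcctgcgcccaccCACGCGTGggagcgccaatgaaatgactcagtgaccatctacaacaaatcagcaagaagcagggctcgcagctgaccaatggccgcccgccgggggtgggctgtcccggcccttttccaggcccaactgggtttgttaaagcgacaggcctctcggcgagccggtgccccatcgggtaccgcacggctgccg
The TXNIP window holds 4 matches, of which those at positions 163 and 174 form a pair of CACGNG with 5 bases between them, a spacing found on either strand in 20 of the 35116 promoters (0.0570%). The ARRDC4 window holds 3, and that at position 41 reads CACGTG, which 7.26% of the promoters hold, while no spaced pair of these letters is in its window. The window at a further TXNIP start in the table, chr1:145995695-145995994, holds 0 matches. These matches describe the letters only, and binding was not measured.

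The other large falls have varied roles. MT1E, a metallothionein that binds zinc and copper, had 107.5, 331.8 and 390.6 CPM in the TFF3-zero cells and 87.1, 61.3 and 42.9 in the TFF3-high cells. Its size differed strongly between plates, small in library 6 and large in library 8, and the log2 difference of -1.74 ± 0.36 was not called without library 8 (-1.21) and was -2.65 without library 6. MTF1, the transcription factor that induces metallothioneins, chosen after its values were seen, also fell, by 1.14 ± 0.24 on the log2 scale, and its call was lost without library 6 or 8 (-1.19 and -1.03). AKAP12, a scaffold for protein kinase A, had 140.1, 85.7 and 128.3 and 28.7, 46.7 and 37.5 CPM. The groups lay apart in 3 of 3 plates, with a log2 difference of -1.58 ± 0.26 (adjusted p = 0.0117, edgeR). An AKAP12 UMI was found in 26.6% of the TFF3-high cells and 31.6% of the TFF3-zero cells. In the TFF3-zero cells 1 cell gave 19.6% of the AKAP12 UMIs. The cells between were at 41.6, 75.8 and 19.6 CPM, below the TFF3-high cells in library 8. The call of AKAP12 was lost in 5 of 19 alternatives, at -0.50 with cells thinned and groups chosen again among them. GRB10, an adaptor that dampens insulin receptor signaling, had 45.4, 36.7 and 43.4 and 10.2, 14.6 and 14.3, a log2 difference of -1.64 ± 0.31 that was not called without library 6 (-1.33). IGFBP1, a secreted binder of insulin-like growth factors, had 65 UMIs in the TFF3-zero cells and 4 in the TFF3-high cells, a log2 difference of -3.09 ± 0.61 resting on few counts. EGR4, an immediate early transcription factor, had 74.5, 101.3 and 99.3 and 19.5, 49.6 and 10.7 CPM. It differed by -1.73 ± 0.31 (adjusted p = 0.0187, edgeR, 3 of 3 plates). Over 18 alternatives EGR4 ranged from -2.31 to -0.37, and its call was lost in 3. A single cell gave 31.1% of its UMIs in the TFF3-high cells.

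DUSP2, a phosphatase that switches off MAP kinases, had 94.7, 123.6 and 152.4 CPM in the TFF3-zero cells and 32.4, 77.4 and 48.3 in the TFF3-high cells, a log2 difference of -1.17 ± 0.22 that was not called without library 8 (-1.01). Of the 30 tested genes of the immediate early list, which does not hold EGR4, DUSP2 was called lower and 0 higher, and their median of -0.26 came from plate medians of -0.23, 0.48 and -1.14. Without library 8 that median was 0.10, so the plates point in different directions. The other named falls were also lower in 3 of 3 plates. They are G0S2, an inhibitor of fat breakdown (-1.42 ± 0.31), TRIM8 (-1.35 ± 0.29), CALCB, a calcitonin gene-related peptide (-1.33 ± 0.30), PMM2, a mannose phosphate mutase of protein glycosylation (-1.31 ± 0.29), and LEO1, a subunit of the PAF1 transcription complex (-1.23 ± 0.24). Without library 8 all 5 calls were lost, at -1.29, -1.30, -1.11, -1.04 and -1.18, and without library 6 that of LEO1 was lost too (-1.15).

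**Figure D4:**
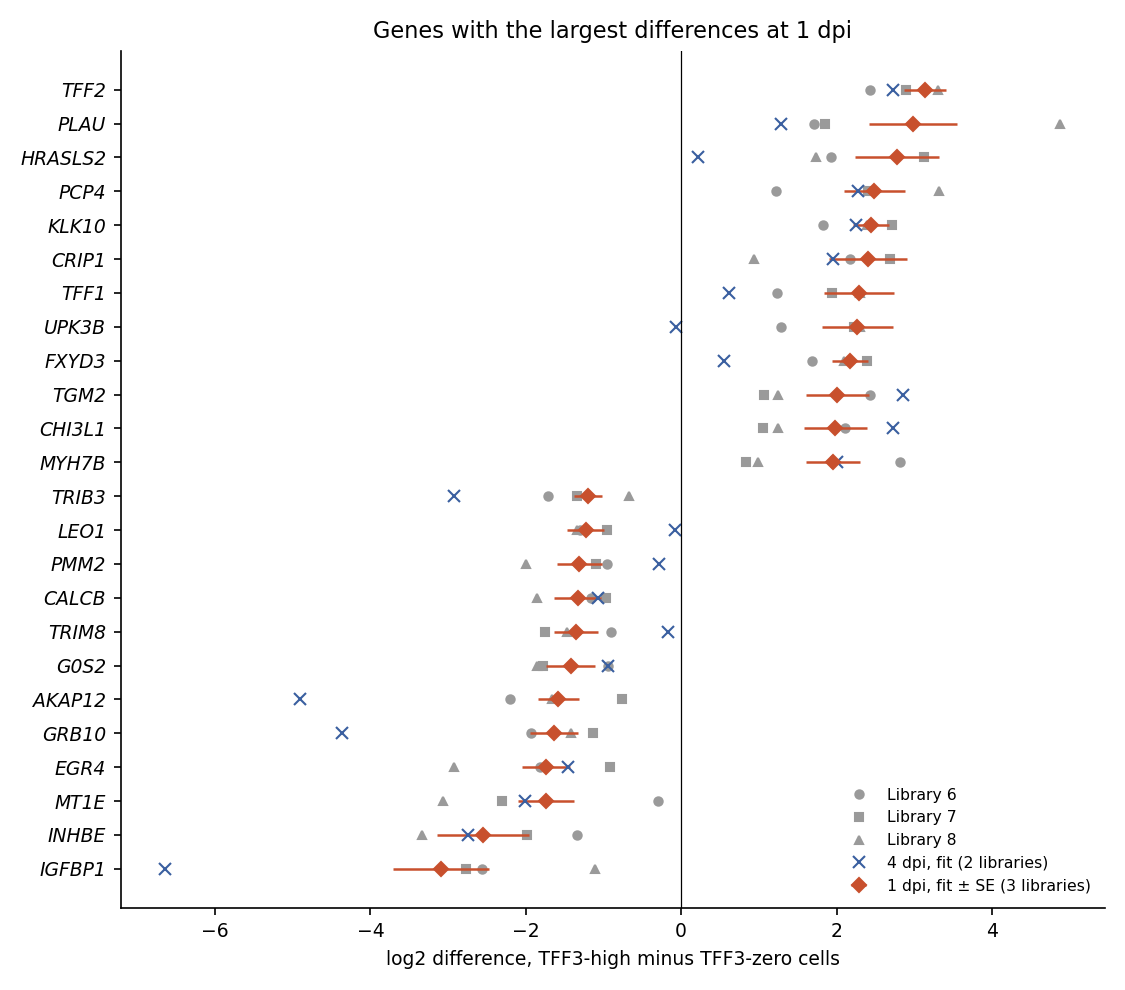
Log2 differences between TFF3-high and TFF3-zero cells for the 12 largest rises and 12 largest falls at 1 dpi, with the fit and its SE over 3 plates (diamonds), the value in each plate (grey, computed with a prior count of 2) and the fit at 4 dpi (crosses). TFF2 and PCP4 have values of 2.73 and 2.28 at 4 dpi, and AKAP12 and IGFBP1 lie further out at 4 dpi.

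Genes of Notch and Wnt signaling and of stem cell or secretory fates gave few calls. HES1, a main target of Notch, had 690.0, 859.6 and 834.2 CPM in the TFF3-zero cells and 695.1, 1004.4 and 332.6 in the TFF3-high cells, lower in library 8 alone, and its log2 difference of -0.23 ± 0.22 was not called. Without library 8 it was 0.20, and without library 7 it was called at -0.54, so the sign of HES1 rests on the plate. HES5 (-0.87 ± 0.35) and HEYL (-1.19 ± 0.38) were not called, HES5 was called lower in 6 of 19 alternatives (at -1.64 without library 6 among them) and HEYL in 1 of 16, and HEY2, DLL4 and TERT had too few UMIs to be tested. Of 9 tested Notch effectors and targets 1 was higher, CDKN1A, and 0 lower, with a median of 0.0396, and of 19 Notch receptors, ligands and modulators 0 passed in either direction. AXIN2, the feedback inhibitor of Wnt signaling, had 225.9, 196.0 and 221.8 CPM in the TFF3-zero cells and 176.1, 70.1 and 114.4 in the TFF3-high cells. Its log2 difference of -0.78 ± 0.19 just missed the threshold (adjusted p = 0.0576, edgeR, 3 of 3 plates), and it was called in 3 of 19 alternatives, at -1.08 without library 6 among them. NOTUM (0.05 ± 0.15), APCDD1 (0.32 ± 0.19), ASCL2 (0.49 ± 0.21) and LGR5 (-0.0105 ± 0.48) were not called, and the sign turned for NOTUM without library 6 (-0.0919) and for LGR5 without library 7 (0.20). PROX1, a transcription factor downstream of Wnt in colon tumors, was the 1 of 26 tested Wnt and stem cell genes that was higher, with 0 lower and a median of -0.0107. It had 72.5, 60.1 and 59.8 and 202.0, 59.9 and 141.3 CPM, with nearly equal levels in library 7, and its log2 difference of 1.10 ± 0.24 was not called without library 6 or 8 (0.79 and 0.97).

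Invasion and stress genes gave a mixed picture. SNAI1, a repressor of E-cadherin, rose by 1.41 ± 0.30 in 3 of 3 plates, with 21.5% of its UMIs in the TFF3-high cells from 1 cell. S100A4 and LGALS1 (0.74) were higher too, and the median over 21 tested mesenchymal genes was 0.16. Yet VIM, the mesenchymal filament vimentin, was at -0.71 and CDH1, E-cadherin, at 0.84, neither called. CDKN1A, the cell cycle inhibitor p21, rose by 1.28 ± 0.30 and GADD45B by 1.02 ± 0.24, the 2 higher genes of 23 tested p53 and arrest genes, with 0 lower and a median of -0.0578. Both calls were lost without library 7 (0.81 and 0.60), and 1 cell gave 34.1% of the CDKN1A UMIs of the TFF3-high cells.

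Of interferon-stimulated genes 1 of 15 tested was higher and 0 lower, and it was IFITM2, a membrane protein that blocks viral entry. IFITM2 had 110.5, 132.5 and 135.0 CPM in the TFF3-zero cells and 238.2, 214.6 and 286.1 in the TFF3-high cells, a log2 difference of 1.07 ± 0.15 (adjusted p = 0.00625, edgeR, 3 of 3 plates), and the list's median was 0.62. RAD51AP1 (1.15 ± 0.25) and RFC2 (0.85 ± 0.20) were the 2 of 38 tested S phase genes that were higher, and CBX5 (0.92 ± 0.19) the 1 of 47 G2/M genes, with 0 lower in either list. The S phase median of 0.45 came from 0.88, -0.25 and 0.37 in libraries 6, 7 and 8, and was 0.0506 without library 6 and 0.79 without library 7. All 3 calls were lost without library 8 (0.91, 0.76 and 0.78), that of RFC2 also without library 6 (0.78), and RFC2 was at -0.52 with cells thinned and groups chosen again. ANXA4 (0.70 ± 0.17) joined S100A4 as the 2 of 17 higher S100 and annexin genes, with 0 lower and a median of 0.29, and its call was lost without library 7 or 8 (0.59 and 0.63).

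The remaining lists held few or no calls. No gene passed in either direction among the tested genes of membrane mucins and their glycosylation (9 tested, median 0.12), colon identity transcription factors (11, -0.11), secretory vesicle and Golgi transport (28, -0.0431), NF-kB feedback and chemokines (16, 0.00173), STAT3 and cytokine response (11, 0.0764), cholesterol and fatty acid synthesis (25, 0.21) or mitochondrially encoded genes (21, -0.0147). At an unadjusted p under 0.05 edgeR gave 965 higher and 697 lower genes over all genes tested, and DESeq2 called 50 higher and 13 lower after adjustment. In the metallothionein, iron and oxidative stress list 2 of 19 tested genes were lower, MT1E and SLC7A11, and 0 higher, with a median of -0.22. Of the goblet and secretory list 5 were tested, and TFF1 and TFF2 were higher, while FOXA2 (-0.0449 ± 0.33), KLF4 (-0.48 ± 0.28) and XBP1 (-0.39 ± 0.21), transcription factors of secretory cells, were not called. Without library 7 FOXA2 was at 0.19 and XBP1 was called lower at -0.74.

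**Figure D5:**
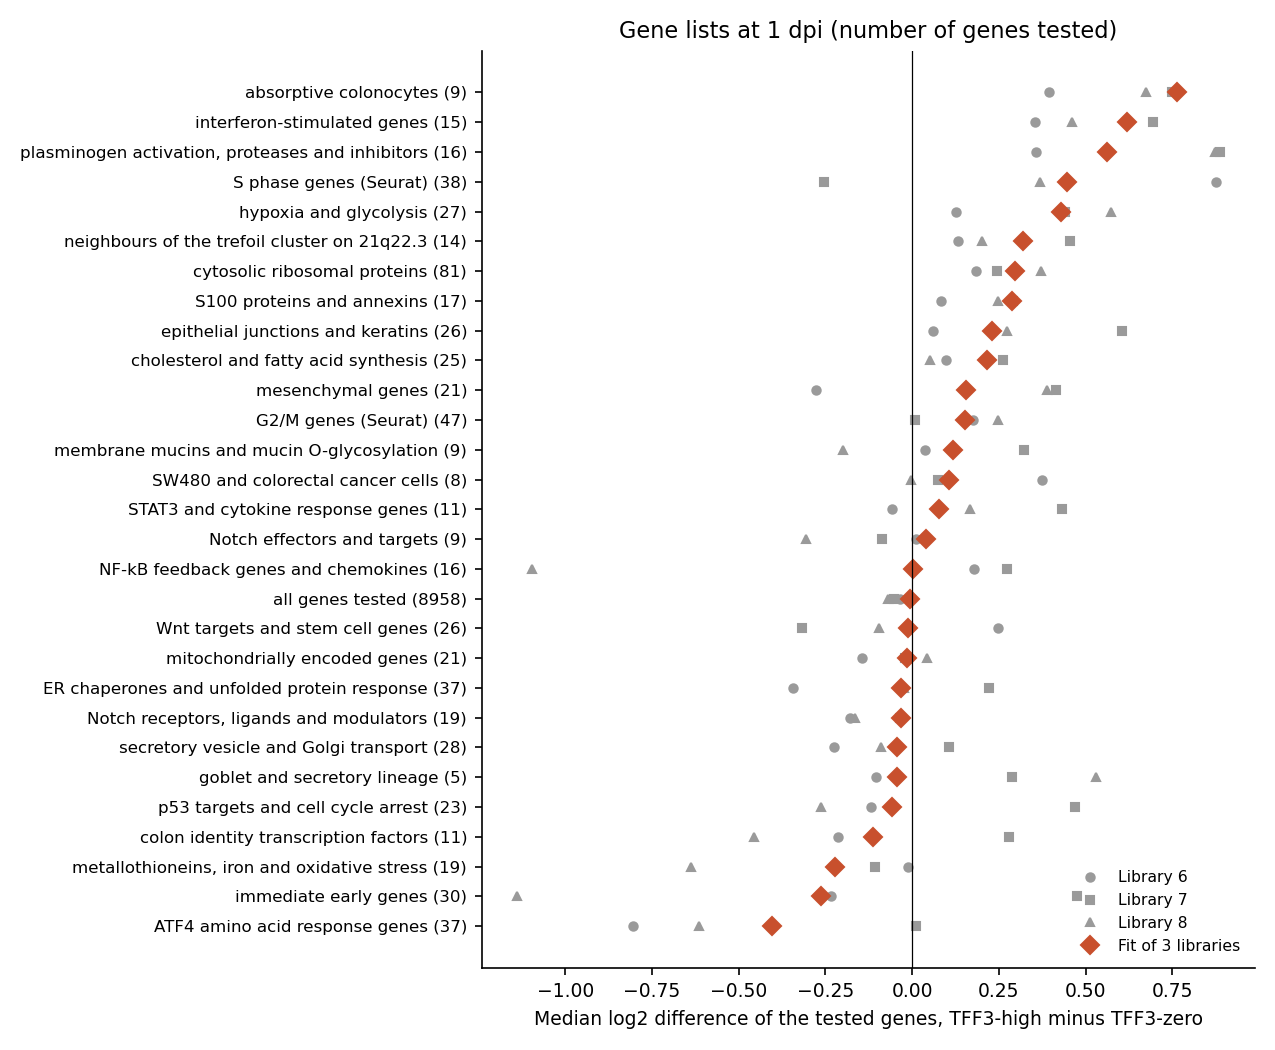
Median log2 difference between TFF3-high and TFF3-zero cells over the tested genes of each list, from the fit over 3 plates (diamonds) and within each plate (grey), with the number of genes tested. Ribosomal proteins are above 0 in 3 of 3 plates, with a median of 0.30, and the ATF4 list is at -0.40 with library 7 at 0.01.

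The same rule was applied to the 2 plates of 4 dpi, which share no cells with those of 1 dpi. It gave 44 TFF3-high and 81 TFF3-zero cells out of 291, and of 9530 genes tested 1041 were higher (10.9%) and 1057 lower (11.1%). These counts were 446 and 402 without library 10 and 253 and 253 without library 11. Of the 140 genes higher at 1 dpi, 91 (65%) were also higher at 4 dpi and 4 lower, and of the 40 lower genes 25 (62.5%) were also lower and 0 higher. These 91 and 25 are 8.74% and 2.37% of the genes called in the same direction at 4 dpi. The groups of 4 dpi also differed in mitochondrial share, with medians of 16.03% and 17.4% in the TFF3-high cells of libraries 10 and 11 against 7.79% and 10.1% in the TFF3-zero cells, a gap that 1 dpi did not show, and with mitochondrially encoded genes left out of the sums, chosen after seeing the data, 1017 and 1049 genes were called at 4 dpi. TFF2 was higher at 4 dpi by 2.73 (adjusted p = 0.00137, edgeR, 2 of 2 plates), with 8 UMIs in the TFF3-zero and 27 in the TFF3-high cells. KLK10 had 1 and 4 UMIs there and TFF1 1 and 1, too few to tell whether they differed. TRIB3 was lower by a log2 difference of -2.92 and the ATF4 list had 31 of 38 tested genes lower with a median of -1.46. Of the ribosomal proteins 73 of 81 were higher, with a median of 0.63.

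The difference between the 2 times was tested itself. Of 9530 genes, 110 (1.15%) had a higher and 279 (2.93%) a lower TFF3-high to TFF3-zero difference at 4 dpi than at 1 dpi, which became 19 and 26 without library 10 and 21 and 51 without library 11. PLAUR went from 1.82 at 1 dpi to -1.16 at 4 dpi (change -2.98, adjusted p = 0.00487, edgeR), GADD45B from 1.02 to -2.59 (change -3.61, adjusted p = 3.9e-05, edgeR) and FXYD3 from 2.17 to 0.55 (change -1.62, adjusted p = 0.0326, edgeR). GADD45B was thus called in opposite directions at the 2 times, and PLAUR and FXYD3 were not called at 4 dpi. PTGDS went the other way, from 1.74 to 3.26 (change 1.52, adjusted p = 0.00731, edgeR), and TRIB3 fell further, by a change of -1.72. AKAP12 changed by -3.32, but on library 10 alone, with 127.7 CPM in the TFF3-zero and 3.44 in the TFF3-high cells against 3.99 and 0 in library 11. For TFF2 and S100A4 no change between the times was called, with values of -0.40 and 0.26. TFF1 (-1.66 ± 2.59) and KLK10 (-0.18 ± 5.44) were not called either, with too few UMIs at 4 dpi to tell.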

How the data were processed

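The libraries were made by SORT-seq, and the authors deposited a count of UMIs for every gene in each of 384 wells on 5 plates. The submitters' notes name BWA and hg38 for the alignment, without versions. ERCC spike-ins were left out of totals. Wells were filled by FACS, no doublet caller was run, plates share the well numbers 1 to 384, and 0 of the 822 cells had identical counts. UMIs were summed per plate and group and compared with edgeR 4.0.16 in R 4.3.3 (TMM, filterByExpr, plate as a block, two-sided quasi-likelihood test, adjusted by Benjamini-Hochberg at 0.05). Standard errors were derived from the F statistic. The 4 dpi difference and the difference between times came from 1 fit over 5 plates (10 sums). The test was also tested on simulated data. A few results are not reported here.

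Named genes are the 12 largest rises and 12 largest falls among called genes that moved the same way in 3 of 3 plates with at least 50 UMIs, the tested trefoil and goblet genes, 12 Notch, Wnt and lineage genes fixed beforehand, and the highest and lowest 2 called genes of each list. Genes outside the rule were chosen after their values were seen, namely PTGDS, PLAUR, TMPRSS3, BACE2, TXNIP, ARRDC4, SLC3A2, XPOT, MSLN, TRIM29, LDHA, GAPDH, STMN1, LEMD1, FXYD5 and MTF1, as were 2 lists (ATF4 response, proteases). The members and the lists were chosen with earlier results of these data known. Cell cycle genes are those of Seurat 5.3.0, and positions are from GENCODE on GRCh38. Alternatives were DESeq2 1.42.0, its size factors, no filter on low counts, no plate block, thinning to 5000 UMIs, depth matching, other group sizes, a mitochondrial maximum of 15%, a minimum of 3000 genes, low-cycling cells and each plate left out. A further 3 were chosen after seeing the data. Totals per plate of the cells were 7504952, 5381688, 4765230, 3960180 and 3787620 UMIs in libraries 6, 7, 8, 10 and 11, and a gene at 1 CPM is at about the floor of a summed group.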

Additional observations from a re-analysis of the deposited data

Results flagged for a closer look

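Several of the genes named had a TFF3-high to TFF3-zero difference that itself differed between 4 dpi and 1 dpi in edgeR (Benjamini-Hochberg adjusted p under 0.05), and over all genes 110 had a higher and 279 a lower difference at 4 dpi. The differences below are 4 dpi minus 1 dpi on the log2 scale, over 2 and 3 plates.

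The difference was lower at 4 dpi for GADD45B (-3.61), AKAP12 (-3.32), PLAUR (-2.98), CDKN1A (-2.95), XBP1 (-1.79), TRIB3 (-1.72), FXYD3 (-1.62), HES1 (-1.59), TRIM29 (-1.52) and TXNIP (-0.92), with adjusted p from 3.9e-05 for GADD45B to 0.0356 for TXNIP. The value of AKAP12 rests on library 10, since library 11 had 3.99 CPM in the TFF3-zero cells and 0 in the TFF3-high cells. For GADD45B, PLAUR, CDKN1A and TRIM29 the fitted value went from above 0 at 1 dpi to below 0 at 4 dpi (-2.59, -1.16, -1.67 and -0.21). Other genes of the lists did so too, such as SLPI, which went from 0.89 to -1.64 (change -2.52, adjusted p = 0.00272).

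A higher difference at 4 dpi was found for HEYL (3.50), PTGDS (1.52), AXIN2 (1.40), DUSP2 (1.39), APCDD1 (1.09) and NOTUM (0.91), with adjusted p from 0.00731 for PTGDS to 0.0451 for HEYL. HEYL rests on few UMIs at 4 dpi, with 1.702 and 1.99 CPM in the TFF3-zero cells and 12.05 and 5.67 in the TFF3-high cells. The Wnt feedback genes AXIN2, APCDD1 and NOTUM thus had fitted values of 0.62, 1.41 and 0.96 at 4 dpi, against -0.78, 0.32 and 0.05 at 1 dpi. The counts of 110 and 279 fell to 19 and 26 without library 10 and to 21 and 51 without library 11. With mitochondrially encoded genes left out of the sums, chosen after seeing the data, they were 95 and 279. Whether the cells' mitochondrial share plays a part beyond that was not tested.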

How the results depend on the processing

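With 3 plates, sums of 21 to 87 cells and few UMIs for many genes, the calls depend on the settings. Of the 62 named genes called at 1 dpi, 12, 5 and 27 lost the call without library 6, 7 and 8. PTGDS, PLAUR and RPS15 kept the call in all 19 alternatives and KLK10 in all 18 that tested it. Over all named genes 1011 comparisons gave the same call, 259 lost it and 12 gained it. DESeq2 gave no adjusted p for TFF2. The cause of these changes was not tested.

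The counts of higher and lower genes at 1 dpi were 50 and 13 with DESeq2, 268 and 204 with no filter on low counts, 70 and 18 with cells thinned and groups chosen again (26 and 5 of them among the 140 and 40), 23 and 1 with depth-matched zero cells, 292 and 89 with the top 10%, 82 and 14 with the top 25%, 272 and 86 against all other cells, and 49 and 10 in low-cycling cells. Lower genes numbered 25 without the 2 cells of highest TFF3, an alternative chosen after seeing the data, as were those of genes listed in all 5 libraries and of mitochondrially encoded genes left out (both counts within 1.5 times). Thinned cells with the groups kept gave 107 and 48. Plates left out gave 80 to 292 higher and 15 to 171 lower genes. With no plate block, which ignores the pairing of groups within plates, 140 and 42 were called, 120 and 33 of them shared.

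At 4 dpi the higher and lower genes numbered 468 and 426 with DESeq2, 316 and 251 with thinned cells, 583 and 656 with depth matching, and 253 to 1140 and 253 to 1187 with a plate left out. Between times they numbered 33 and 75 with DESeq2, 189 higher with no filter, 27 and 54 thinned, 24 and 92 depth-matched, and 19 to 93 and 26 to 267 with a plate left out; with 1 plate of 4 dpi left, that plate is assumed to vary like the others.

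Signs turned for genes near 0 or weakly called. LGR5 was at 0.0698 with DESeq2, 0.12 against all other cells, 0.0743 with 3000 genes and -0.50 to 0.20 with a plate left out. NOTUM was at -0.0997 thinned, -0.20 thinned and chosen again, -0.00597 with the top 10%, -0.10 in low-cycling cells and -0.0919 to 0.23 with a plate left out. FOXA2 was at 0.27 depth-matched, 0.13 with the top 10%, 0.0112 with the 15% mitochondrial maximum and -0.32 to 0.19 with a plate left out. HES1 was at 0.11 thinned and chosen again, 0.0714 with the 15% maximum, 0.63 in low-cycling cells and -0.54 to 0.20 with a plate left out. Thinned and chosen again, XBP1 was at 0.0297, APCDD1 at -0.11, RFC2 at -0.52, RPL22L1 at 0.22 and TMPRSS3 at -0.0705. In low-cycling cells KLF4 was at 0.0151, XBP1 at 0.0736, HES5 at 0.92 (though called lower in 6 other settings) and APCDD1 at -0.12.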

Other observations

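Wells that did not pass the cell filter also held TFF3. In libraries 6, 7 and 8 the 157, 242 and 222 wells left out had 5, 29 and 19 TFF3 UMIs, which is 39.1, 166.1 and 121.1 CPM of their own UMIs, beside 73.6, 82.7 and 109.8 CPM in the cells. These wells had a median of 304, 209.5 and 201 UMIs, so a single TFF3 UMI in a cell need not come from that cell's own RNA, and the TFF3-high cells included some with 1 or 2 TFF3 UMIs.

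Over all genes tested 1.56% were higher. On chromosome 21 the higher genes were 5 of 92 tested, with the highest median log2 difference of any chromosome (0.14), and on chromosome 19 they were 22 of 570, on chromosome 5 they were 1 of 408 and on chromosome 18 they were 0 of 132. The lowest median was on chromosome 13, at -0.24 over 169 genes with 0 higher and 3 lower.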
